A study of Mus musculus with 8 samples.

Results

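The 10 genes described here, Per1, Per2, Per3, Nr1d1, Nr1d2, Dbp, Tef, Hlf, Ciart and Bhlhe41, are clock genes whose daily rhythm runs opposite to that of Arntl. They were chosen by name from the gene table with earlier results of these data known, among them the low level of Arntl in the AngII+3W libraries. Every comparison with AngII+3W is therefore given below as a description. All 10 were found among the 35896 genes of the table, and all 10 were among the 17182 genes that passed the filter on low counts. RNA of aortic tissue from male C57BL6 mice was sequenced as 8 libraries, each holding tissue pooled from 2 mice. Minipumps implanted at 11 weeks of age delivered angiotensin II at 2.8 mg/kg/d for 2 weeks in 3 groups, and the mice were killed when the infusion ended (AngII, n = 2 libraries), 2 weeks later (AngII+2W, n = 2) or 3 weeks later (AngII+3W, n = 2). Untreated littermates of matched age gave the CTRL group (n = 2), and the labels do not say at which of these time points the mice of each CTRL library were killed. The hour of the day at which tissue was collected is not given in the sources used here for any group, and its part in the values below was not tested.

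The mammalian clock is a loop of transcription that takes about a day. The proteins of Arntl and Clock (or Npas2) bind E-boxes and switch on the Per, Nr1d, Dbp, Tef, Hlf, Ciart and Bhlhe41 genes, whose products in turn close the loop. PER proteins, together with CRY proteins, block the activators at the E-box. The Rev-erb receptors, encoded by Nr1d1 and Nr1d2, repress Arntl, Npas2 and Nfil3, while the PAR bZIP factors DBP, TEF and HLF activate genes through the D-box, which the Nfil3 protein represses. In the vessel wall this clock runs in smooth muscle and endothelial cells and takes part in the daily rhythm of blood pressure and vascular tone.

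Promoter sequences were looked up for the 10 genes in RefSeq (GRCm38.p6), where 9 of the 10 matched with 11 start sites, and Per2 had no entry. The 250 bases before each start were searched on both strands for the E-box (CACGTG), an E-box variant (CACGTT), the D-box (TTACGTAA or TTATGTAA), the cAMP response element (TGACGTCA) and the nuclear receptor hexamer (AGGTCA). The E-box was found before 5 of the 11 starts, in Per1, Tef, Ciart and Bhlhe41, and 6.02% of 32851 RefSeq promoters hold it in a window of the same length. Ciart held 3 E-boxes, starting at -116, -58 and -44 from the transcription start. The E-box variant occurred before Nr1d1 at -28 (3.85% of promoters), and 2 D-boxes occurred before Per3 at -205 and -158 (0.931%). The cAMP response element occurred before Hlf at -9 (1.55%), and the hexamer occurred before the upstream start of Per1 and before Nr1d2 (14% of promoters). No match overlapped another, and no match was found before Dbp or before the downstream start of Per1, which says only that these letters are not in those windows. The window before the upstream start of Tef holds an E-box at -127 but begins inside an annotated exon and is left out. The 6 windows below are the others that hold an E-box, its variant or a D-box, the elements of the loop. Each is written 5′ to 3′ on the strand of its gene, with the match in capitals and bases inside annotated exons left out.
Per1, within the annotated gene and before its upstream RefSeq start, chr11:69098699-69098947, forward strand, E-box in capitals: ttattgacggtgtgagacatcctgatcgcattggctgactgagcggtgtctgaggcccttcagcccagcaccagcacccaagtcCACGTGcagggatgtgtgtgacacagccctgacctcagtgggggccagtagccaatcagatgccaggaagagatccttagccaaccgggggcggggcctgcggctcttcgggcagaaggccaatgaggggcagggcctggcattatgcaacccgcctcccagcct
Ciart, chr3:95882252-95882478, reverse strand, E-boxes in capitals: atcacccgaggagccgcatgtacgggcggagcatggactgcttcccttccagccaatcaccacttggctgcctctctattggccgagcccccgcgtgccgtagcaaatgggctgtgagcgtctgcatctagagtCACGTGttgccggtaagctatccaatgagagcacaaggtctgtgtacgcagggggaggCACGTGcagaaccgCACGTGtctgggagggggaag
Bhlhe41, chr6:145865559-145865670, reverse strand, E-box in capitals: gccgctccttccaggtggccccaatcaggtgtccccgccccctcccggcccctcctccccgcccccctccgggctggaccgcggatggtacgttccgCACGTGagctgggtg
Tef, downstream start, chr15:81811164-81811413, forward strand, E-box in capitals: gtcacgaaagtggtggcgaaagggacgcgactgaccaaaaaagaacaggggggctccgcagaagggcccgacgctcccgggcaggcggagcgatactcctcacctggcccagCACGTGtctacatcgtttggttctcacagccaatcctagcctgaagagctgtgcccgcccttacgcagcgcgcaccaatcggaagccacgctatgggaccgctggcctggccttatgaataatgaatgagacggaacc
Nr1d1, chr11:98775378-98775627, reverse strand, E-box variant in capitals: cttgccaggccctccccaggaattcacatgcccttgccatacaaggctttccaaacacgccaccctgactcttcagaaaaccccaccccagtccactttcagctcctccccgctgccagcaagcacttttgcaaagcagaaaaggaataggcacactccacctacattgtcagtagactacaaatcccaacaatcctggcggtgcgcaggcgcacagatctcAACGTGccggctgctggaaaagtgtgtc
Per3, chr4:151044666-151044915, reverse strand, D-boxes in capitals: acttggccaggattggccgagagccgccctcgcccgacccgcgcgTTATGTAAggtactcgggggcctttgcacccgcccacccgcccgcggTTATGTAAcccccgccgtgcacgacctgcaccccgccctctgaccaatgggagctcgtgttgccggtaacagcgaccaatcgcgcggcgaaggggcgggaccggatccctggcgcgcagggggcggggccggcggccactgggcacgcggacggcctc

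**Figure D1:**
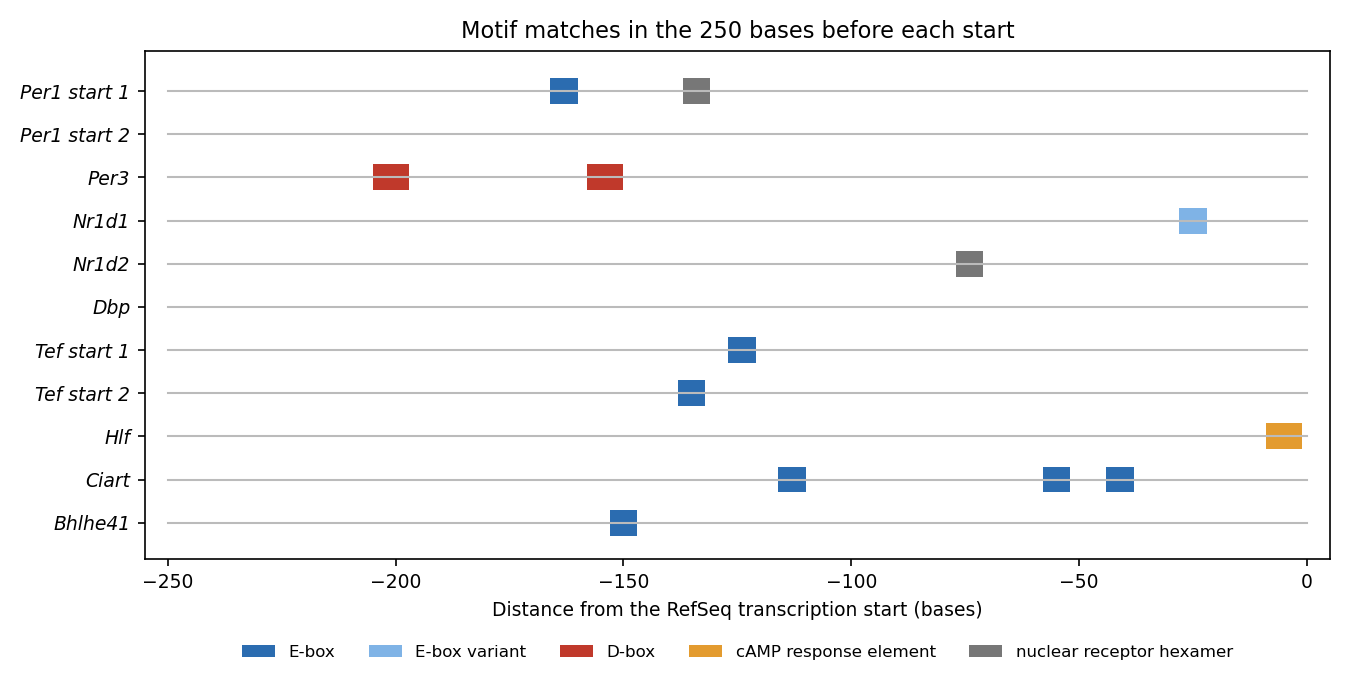
Motif matches (coloured blocks) in the 250 bases before each RefSeq start of 9 of the 10 genes, 1 line for each start, with the distance from the transcription start in bases on the x axis. E-boxes lie before Per1, Tef, Ciart and Bhlhe41, 3 of them before Ciart, and the 2 D-boxes lie before Per3.

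Levels are given as CPM, counts per 1000000 counts after TMM normalization, and each group has 2 libraries, so that ± is the SD of 2 values. To compare the genes with one another, CPM was divided by the kilobases of annotated exons. On this scale Nr1d1 was the highest of the 10 genes in CTRL at 56.3 ± 10.6 CPM per kilobase, followed by Per1 at 31.7 ± 2.36, and Ciart was the lowest at 1.06 ± 0.0862. In CTRL, the libraries of neighbouring genes in this order overlapped between Nr1d2 (19.5) and Tef (17.0) and among Dbp (11.2), Per2 (9.57) and Per3 (8.40), while Hlf (5.39) and Bhlhe41 (3.08) stood apart from their neighbours. The order was different in AngII+3W, where Nr1d1 at 62.2 ± 13.9 was followed by Dbp at 40.5 ± 8.23 and Nr1d2 at 34.7 ± 3.89, whose libraries overlapped, and then by Tef at 29.7 ± 0.555. Per1, at 23.1 ± 8.60, overlapped there with Per3 at 20.9 ± 0.507, and Ciart was again the lowest at 2.60 ± 0.219.

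**Figure D2:**
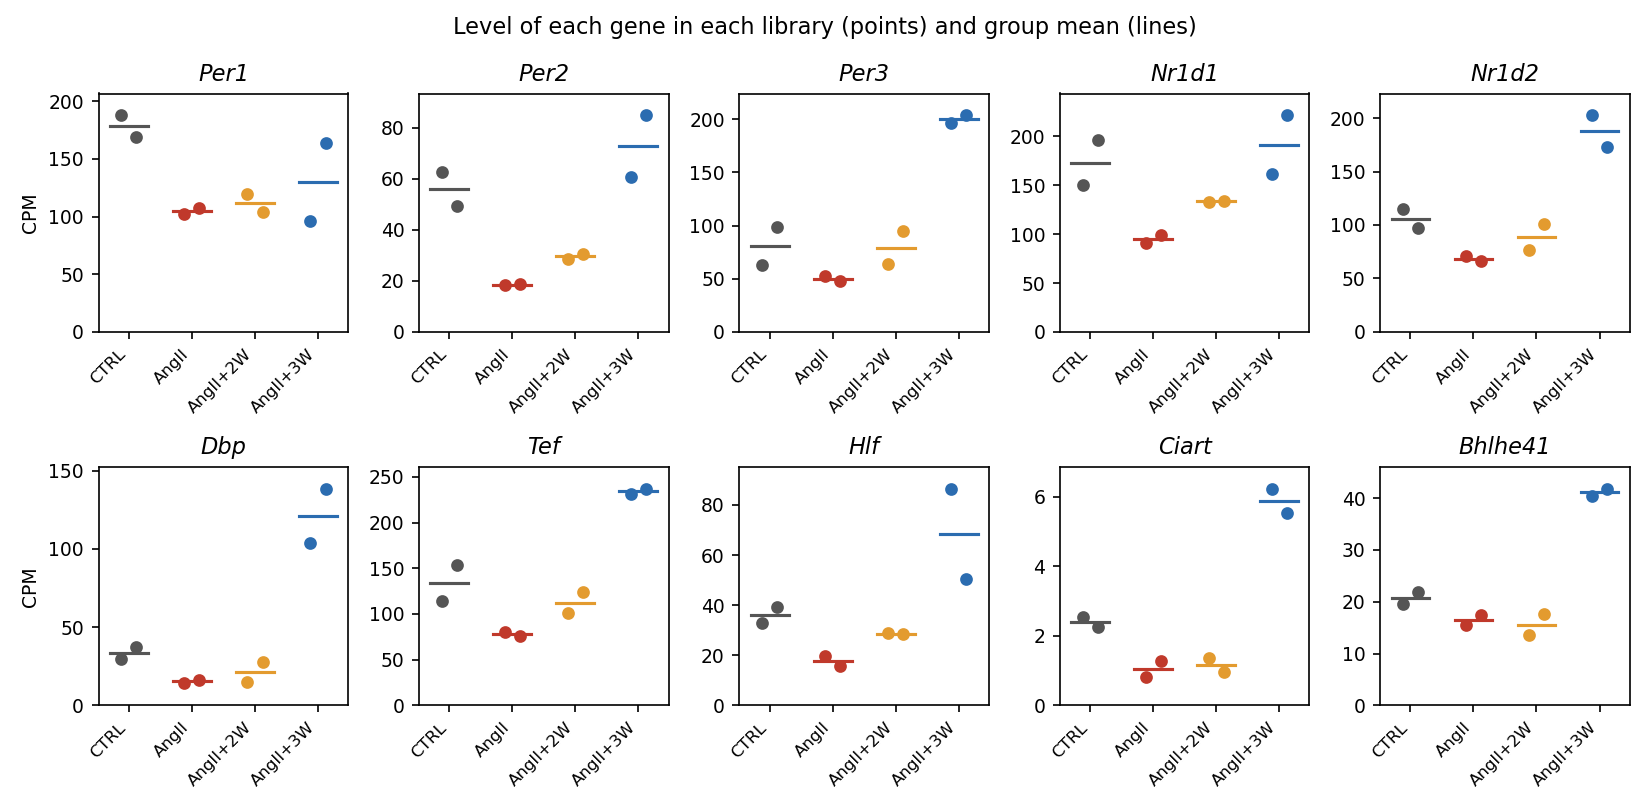
Level of each of the 10 genes in CPM (y axis, linear, starting at 0) in the 8 libraries, with the 2 libraries of a group as points and their mean as a line. In AngII both libraries lie below both CTRL libraries for every gene, and in AngII+3W both lie above both CTRL libraries for 7 of the 10.

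The Period genes encode the repressors of the loop. In GRCm38 the annotation places Per1 (ENSMUSG00000020893) at chr11:69095217-69109960 on the forward strand, Per2 (ENSMUSG00000055866) at chr1:91415982-91459324 on the reverse strand and Per3 (ENSMUSG00000028957) at chr4:151003652-151044665 on the reverse strand. Per2 was at 62.7 and 49.4 CPM in CTRL libraries, at 18.3 and 18.8 CPM in AngII libraries, at 28.6 and 30.7 CPM in AngII+2W libraries and at 60.9 and 85.0 CPM in AngII+3W libraries. The AngII and AngII+2W libraries all lay below CTRL, and those of AngII+3W overlapped with it. Per2 fell in AngII compared with CTRL, by 1.60 on the log2 scale (SE 0.19, FDR = 0.00886, edgeR, quasi-likelihood F test, Benjamini-Hochberg over all genes tested). This was the largest fall among the 10 genes. In AngII+2W the log2 difference from CTRL was -0.92 (SE 0.19, FDR = 0.199). Per3 was at 63.2 and 98.2 CPM in CTRL libraries, at 52.3 and 47.8 CPM in AngII libraries, at 63.6 and 94.5 CPM in AngII+2W libraries and at 197 and 204 CPM in AngII+3W libraries. Its AngII+2W libraries were within the range of CTRL, and its AngII+3W libraries were more than 1.5 times as high as every other library. Against CTRL, Per3 differed on the log2 scale by -0.69 in AngII (SE 0.25, FDR = 0.165), -0.03 in AngII+2W (SE 0.24, FDR = 0.981) and 1.31 in AngII+3W (SE 0.25). Per1 is also induced by many signals outside the loop, whose part here was not tested. It differed from Per2 and Per3 in AngII+3W, where both libraries lay below CTRL. It was at 188 and 169 CPM in CTRL libraries, at 103 and 107 CPM in AngII libraries, at 119 and 104 CPM in AngII+2W libraries and at 95.7 and 164 CPM in AngII+3W libraries. None of the 6 libraries from infused mice reached the lower CTRL library, and the AngII+3W libraries were far apart from each other. For Per1 the log2 difference from CTRL was -0.77 in AngII (SE 0.24, FDR = 0.114), -0.68 in AngII+2W (SE 0.24, FDR = 0.368) and -0.46 in AngII+3W (SE 0.23). With a library left out, the AngII+3W value ranged from -0.95 to -0.12.

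The Rev-erb receptors repress the activator arm of the loop. The same annotation places Nr1d1 (ENSMUSG00000020889) at chr11:98767932-98775333 on the reverse strand and Nr1d2 (ENSMUSG00000021775) at chr14:18204054-18239127 on the reverse strand. Nr1d1 was at 150.3 and 196 CPM in CTRL libraries, at 91.0 and 99.2 CPM in AngII libraries, at 133 and 134 CPM in AngII+2W libraries and at 161 and 222 CPM in AngII+3W libraries. It fell in AngII by 0.87 on the log2 scale (SE 0.19, FDR = 0.0466), a call close to the threshold. Both AngII+2W libraries lay between those of AngII and CTRL, and the AngII+3W libraries overlapped with CTRL. For Nr1d1 the log2 difference from CTRL was -0.38 in AngII+2W (SE 0.19, FDR = 0.548) and 0.14 in AngII+3W (SE 0.19). Nr1d2 was at 115 and 96.9 CPM in CTRL libraries, at 70.7 and 66.0 CPM in AngII libraries, at 77.1 and 101 CPM in AngII+2W libraries and at 203 and 173 CPM in AngII+3W libraries. Its log2 difference from CTRL was -0.63 in AngII (SE 0.17, FDR = 0.0820), -0.25 in AngII+2W (SE 0.17, FDR = 0.664) and 0.83 in AngII+3W (SE 0.17). In AngII+3W this gene was thus above every other library, whereas the libraries of its paralog Nr1d1 overlapped with CTRL.

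The PAR bZIP factors carry the rhythm to output genes. They lie on 3 chromosomes, Dbp (ENSMUSG00000059824) at chr7:45705088-45710203 on the forward strand, Tef (ENSMUSG00000022389) at chr15:81802421-81826863 on the forward strand and Hlf (ENSMUSG00000003949) at chr11:90336536-90390895 on the reverse strand. Dbp, whose transcript has one of the steepest daily rhythms in many tissues, was at 29.7 and 37.4 CPM in CTRL libraries, at 14.5 and 16.2 CPM in AngII libraries, at 15.1 and 27.5 CPM in AngII+2W libraries and at 104 and 139 CPM in AngII+3W libraries. The AngII and AngII+2W libraries all lay below CTRL, and the AngII+3W libraries lay far above it. The log2 difference of Dbp from CTRL was -1.13 in AngII (SE 0.28, FDR = 0.0669), -0.66 in AngII+2W (SE 0.28, FDR = 0.462) and 1.85 in AngII+3W (SE 0.28), which is 3.61-fold. Tef was at 114 and 154 CPM in CTRL libraries, at 80.6 and 76.4 CPM in AngII libraries, at 101 and 124 CPM in AngII+2W libraries and at 231 and 237 CPM in AngII+3W libraries. Its log2 difference from CTRL was -0.77 in AngII (SE 0.18, FDR = 0.0504), -0.25 in AngII+2W (SE 0.17, FDR = 0.678) and 0.81 in AngII+3W (SE 0.17). The AngII+3W libraries of Tef differed from each other by less than its CTRL libraries did. Hlf was at 32.8 and 39.2 CPM in CTRL libraries, at 19.7 and 15.9 CPM in AngII libraries, at 28.7 and 28.5 CPM in AngII+2W libraries and at 86.5 and 50.3 CPM in AngII+3W libraries. Against CTRL, Hlf differed on the log2 scale by -1.02 in AngII (SE 0.25, FDR = 0.0631), -0.33 in AngII+2W (SE 0.25, FDR = 0.700) and 0.92 in AngII+3W (SE 0.25).

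Ciart and Bhlhe41 encode further repressors that act at the E-box. The annotation has Ciart (ENSMUSG00000038550) at chr3:95878503-95882251 on the reverse strand and Bhlhe41 (ENSMUSG00000030256) at chr6:145858243-145865558 on the reverse strand. Ciart (also called Chrono) was the least expressed of the 10 genes, with between 15 and 116 counts in a library, and 3 counts, taken as the floor of detection, are 0.140 to 0.162 CPM. It was at 2.53 and 2.26 CPM in CTRL libraries, at 0.810 and 1.28 CPM in AngII libraries, at 1.35 and 0.967 CPM in AngII+2W libraries and at 6.24 and 5.53 CPM in AngII+3W libraries. The AngII and AngII+2W libraries all lay below CTRL, and the AngII+3W libraries lay above it. For Ciart the log2 difference from CTRL was -1.18 in AngII (SE 0.32, FDR = 0.0794), -1.04 in AngII+2W (SE 0.31, FDR = 0.311) and 1.29 in AngII+3W (SE 0.29). Bhlhe41 (Dec2) was at 19.6 and 21.8 CPM in CTRL libraries, at 15.6 and 17.3 CPM in AngII libraries, at 13.5 and 17.7 CPM in AngII+2W libraries and at 40.5 and 41.8 CPM in AngII+3W libraries. Its log2 difference from CTRL was -0.33 in AngII (SE 0.16, FDR = 0.310), the smallest of the 10, -0.41 in AngII+2W (SE 0.16, FDR = 0.420) and 0.99 in AngII+3W (SE 0.16).

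The first question of the design was what AngII infusion changed by its end. Of the 10 genes, 2 (Per2 and Nr1d1) passed FDR 0.05 in AngII compared with CTRL, both of them lower, while 5.10% of all genes tested passed it. Both AngII libraries lay below both CTRL libraries for 10 of 10 genes, against 24.9% of all genes tested. The log2 difference had a median of -0.82 over the 10 genes and of -0.0085 over all genes tested. At an unadjusted p below 0.05, 9 of the 10 were lower (all but Bhlhe41), against 9.29% of all genes. These genes move together across libraries, and therefore their number does not count independent observations. They were also chosen with earlier results of these data known, and the same CTRL libraries serve every comparison with CTRL. The shares above are thus not independent of that choice. In whole tissue, fewer cells of a type and less RNA per cell cannot be told apart. Smooth muscle markers, of which 6 of 6 were detected in every library, summed to 9003 and 7007 CPM in CTRL and to 1650 and 2071 CPM in AngII, while fibroblast markers (6 of 6 detected) went from 1075 and 631 CPM to 1933 and 2745 CPM and macrophage markers (6 of 6) from 324 and 241 CPM to 634 and 1061 CPM. Schwann cell markers (4 of 4 detected) ran in the direction of the 10 genes, at 74.6 and 59.6 CPM in CTRL and 45.5 and 37.7 CPM in AngII. So did cardiac muscle markers (7 of 7 detected), at 4906 and 2175 CPM in CTRL and 1302 and 808 CPM in AngII. Skeletal muscle markers summed to 74.8 and 43.7 CPM in CTRL and 27.4 and 19.7 CPM in AngII. Most of each sum was 1 gene, Ckm, at 71.1 and 33.1 CPM in CTRL and 23.6 and 16.3 CPM in AngII. Of the 7 skeletal muscle markers tested, 3 were lower in both AngII libraries than in CTRL. Up to 2 of 9 skeletal muscle markers were at 0 in a library and no marker of the other 5 lists was. Lymphocyte markers (6 of 6 detected) summed to 10.8 and 11.8 CPM in CTRL and 7.72 and 9.71 CPM in AngII. Of these 6, 3 were lower in both AngII libraries than in CTRL. The sums of endothelial, adipocyte and brown fat markers overlapped between AngII and CTRL. The part of these markers in the fall of Per2 and Nr1d1 was not tested. Without CTRL replicate 1 or either AngII library, 0 of the 10 genes passed. The call of Nr1d1 was also lost with DESeq2's size factors or library totals in place of TMM, and that of Per2 held with both. Without CTRL replicate 2, or without any of the AngII+2W and AngII+3W libraries, the number that passed also changed. Shares over all genes are not given for these refits, so nothing is read from them about the 10 genes. DESeq2 called 7 of the 10 genes (9.24% of all genes).

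The second question was whether the difference was still there 2 weeks after the infusion. No gene passed FDR 0.05 in AngII+2W compared with CTRL by edgeR, 0 of the 10 genes and 0% of all genes tested, and DESeq2 called 1 of the 10 (2.17% of all genes) and limma-voom 0. All 10 log2 differences were below 0, with a median of -0.39 against 0.00 over all genes tested, and 5 of the 10 (Per1, Per2, Dbp, Ciart and Bhlhe41) were lower at an unadjusted p below 0.05, against 6.18% of all genes. Both AngII+2W libraries lay below both CTRL libraries for 7 of the 10 genes, the exceptions being Per3, Nr1d2 and Tef, and for 22.2% of all genes. Compared with AngII, 0 of the 10 genes passed in AngII+2W by edgeR, DESeq2 or limma-voom, while 0.163% of all genes passed by edgeR and 3.99% by DESeq2. In this comparison both AngII+2W libraries were higher for 6 of the 10 (26.8% of all genes), and 5 of the 10 (Per2, Per3, Nr1d1, Tef and Hlf) were higher at an unadjusted p below 0.05 (6.57% of all genes). Per2 had the smallest p of these 5, with a log2 difference of 0.68 from AngII (SE 0.19, FDR = 0.157). Smooth muscle markers summed to 3694 and 3327 CPM in AngII+2W, between the sums of AngII and CTRL. Cardiac muscle markers summed to 159 and 8.43 CPM and skeletal muscle markers to 19.0 and 5.85 CPM in AngII+2W, all below the CTRL sums. Of the 7 skeletal muscle markers tested, 2 were lower in both AngII+2W libraries than in CTRL. Adipocyte markers summed to 2576 and 2430 CPM in AngII+2W and to 2909 and 3796 CPM in CTRL, with 2 of 6 lower in both libraries. Fibroblast markers, at 1979 and 1170 CPM, and macrophage markers, at 426 and 436 CPM, lay above their CTRL sums in AngII+2W. Of each of these 2 lists, 4 of 6 were higher in both AngII+2W libraries than in CTRL. The part of these markers in the values of AngII+2W was not tested. When only AngII and AngII+2W were fitted, 3 of the 10 genes passed. The share over all genes is not given for that fit, so nothing is read from this count.

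The AngII+3W values are a description, since the 10 genes were chosen with results of these libraries known. The calls of the fits stand beside their share among all genes for completeness, and nothing is read from them. Compared with CTRL, the log2 difference ranged from -0.46 in Per1 to 1.85 in Dbp, with a median of 0.88 against 0.03 over all genes tested. Both AngII+3W libraries were higher for 7 of the 10 genes (19.8% of all genes), lower for Per1, and overlapped with CTRL for Per2 and Nr1d1. By edgeR 0 of the 10 passed FDR 0.05 (0.285% of all genes), 7 were higher at an unadjusted p below 0.05 (5.34%), DESeq2 called 6 (3.62%) and limma-voom 0. Compared with AngII, Dbp was 7.90-fold higher, Ciart 5.57-fold, Per2 3.93-fold, Hlf 3.85-fold, Tef 2.98-fold, Nr1d2 2.75-fold, Bhlhe41 2.50-fold and Nr1d1 2.01-fold, Per3 was higher by a log2 difference of 2.00, and Per1 was 1.24-fold higher with overlapping libraries. In that comparison edgeR called 8 of the 10, all but Per1 and Nr1d1, beside 1.61% of all genes, by values the choice of the genes used. Both AngII+3W libraries were higher than AngII for 9 of the 10 (24.8% of all genes), and 9 were higher at an unadjusted p below 0.05 (7.41%). The count of 8 was 8 or 9 in 8 of 9 other settings and became 0 when only these 2 groups were fitted or without either AngII library, and 3 without either AngII+2W library or without AngII+3W replicate 1. Compared with AngII+2W, both AngII+3W libraries were higher for 9 of the 10 (20.7% of all genes), and the log2 differences ranged from 0.22 in Per1 to 2.51 in Dbp. By edgeR 0 of the 10 passed (0% of all genes), with 9 higher at an unadjusted p below 0.05 (4.62%), and DESeq2 called 8 (1.37%) and limma-voom 0. Without AngII+3W replicate 2, edgeR called some of the 10 in this comparison and against CTRL, and the share over all genes is not given for that fit. The lone library left then is replicate 1, with 2666 CPM of skeletal muscle markers, and it is assumed to vary as the libraries of the other groups do.

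**Figure D3:**
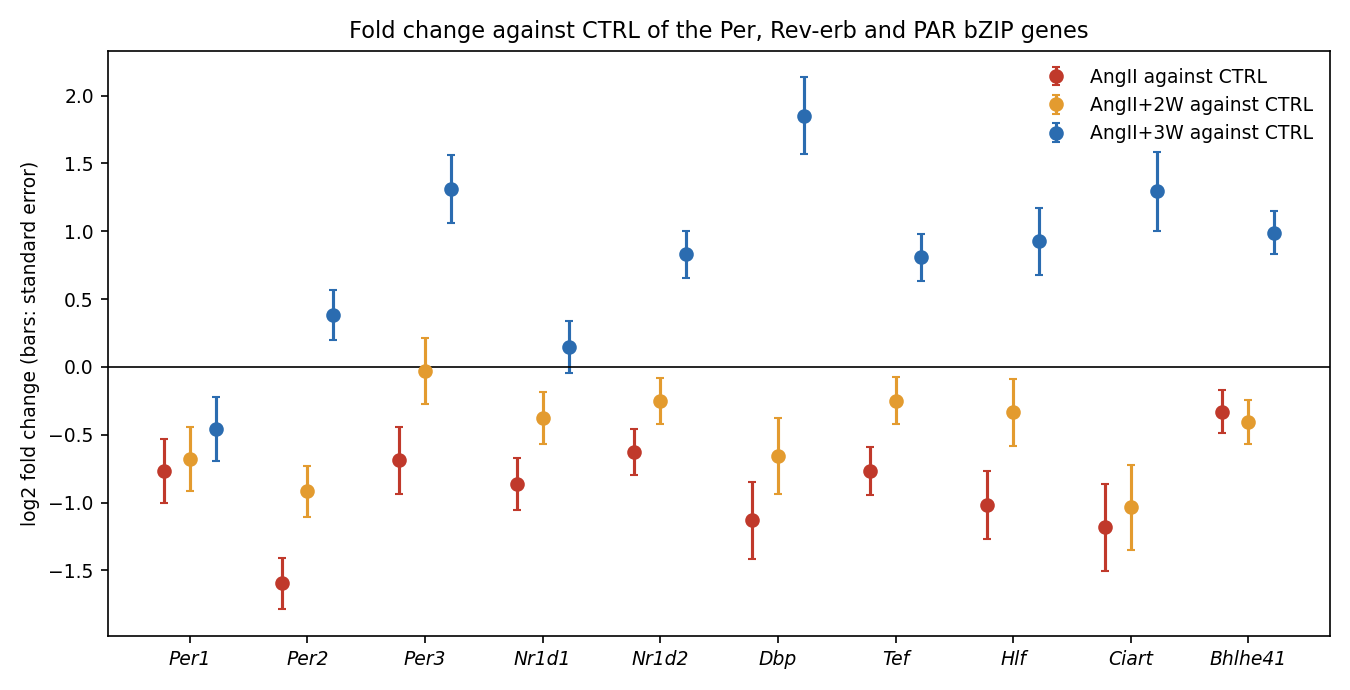
Log2 fold change against CTRL (y axis) of each of the 10 genes in AngII, AngII+2W and AngII+3W, with points for edgeR's estimates from 2 libraries in each group and bars for their SE. All 20 estimates of AngII and AngII+2W lie below 0, and those of AngII+3W lie above 0 for 9 genes and below 0 for Per1.

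The AngII+3W libraries differed from each other in their cell type markers. Skeletal muscle markers, of which at most 2 of 9 were at 0 counts in a library, summed to 2666 CPM in AngII+3W replicate 1 and to between 5.85 and 74.8 CPM in the other 7 libraries. Cardiac muscle markers summed to 5599 CPM in that library and to between 8.43 and 4906 CPM in the others, with the next highest sum in CTRL replicate 1. The mean log2 difference of the 10 genes from CTRL was 0.75 in AngII+3W replicate 1 and 0.85 in replicate 2, in which skeletal muscle markers were at 10.7 CPM. Hlf was higher in replicate 1 than in replicate 2, by 0.78 on the log2 scale, and Per1 was lower in it by the same size. The part of muscle tissue in these 2 differences was not tested. Smooth muscle markers summed to 1793 and 3151 CPM in AngII+3W, below both CTRL libraries as in AngII. Of these 6 markers, 4 were lower in both AngII+3W libraries than in CTRL. Smtn (281 and 625 CPM in AngII+3W) and Des (188 and 26.2 CPM) overlapped with CTRL. The part of smooth muscle in the levels of the 10 genes was not tested. Schwann cell markers summed to 106 and 113 CPM in AngII+3W, above the sums of every other library, and to 59.7 and 63.0 CPM in AngII+2W. Adipocyte markers summed to 3107 and 3449 CPM in AngII+3W, within the range of the CTRL libraries. The part of Schwann cell and adipocyte markers in the levels of the 10 genes was not tested.

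Across the 8 libraries the genes other than Per1 followed one another. Averaged over the 10 genes, the log2 difference from CTRL was -0.92 and -0.86 for the AngII libraries, -0.59 and -0.40 for the AngII+2W libraries and 0.75 and 0.85 for the AngII+3W libraries, and the AngII libraries gave the lowest value for 8 of the 10 genes. The 36 pairs among the 9 genes without Per1 had a Pearson r of log2 CPM between 0.702 (Nr1d1 and Bhlhe41) and 0.983 (Per3 and Tef), with 0.979 for Dbp and Bhlhe41. The 9 pairs with Per1 ranged from 0.105 (Per3) to 0.636 (Nr1d1). These correlations describe 8 libraries in 4 groups and hold the group differences given above. Within a group the genes did not all shift the same way between replicates, and those higher in replicate 2 numbered 6 of the 10 for CTRL, 6 for AngII, 7 for AngII+2W and 7 for AngII+3W. The ratio of Dbp to Per1 counts, which does not depend on library size, was 0.158 and 0.221 for CTRL libraries, 0.141 and 0.151 for AngII libraries, 0.127 and 0.265 for AngII+2W libraries and 1.08 and 0.844 for AngII+3W libraries. The ratio of Per3 to Per1 counts was 0.337 and 0.581 for CTRL libraries, 0.510 and 0.446 for AngII libraries, 0.533 and 0.909 for AngII+2W libraries and 2.06 and 1.24 for AngII+3W libraries. Both ratios were higher in AngII+3W than in any other library.

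Arntl, the activator whose phase the 10 genes oppose, was at 35.7 and 26.3 CPM in CTRL libraries, at 40.9 and 36.2 CPM in AngII libraries, at 43.3 and 34.7 CPM in AngII+2W libraries and at 8.12 and 10.1 CPM in AngII+3W libraries. The low level in both AngII+3W libraries was part of what the 10 genes were chosen on and is not a finding about them. The log2 difference of Arntl from CTRL was 0.31 in AngII (SE 0.19, FDR = 0.430) and 0.33 in AngII+2W (SE 0.19, FDR = 0.604), neither of which passed. Among the 15 other core clock genes, 0 were called in AngII, where Cry2 was at 42.1 and 40.2 CPM against 51.0 and 66.6 in CTRL (log2 difference -0.51, SE 0.15, FDR = 0.0953). The median log2 difference of these 15 genes was -0.25 at the end of infusion, 0.05 for AngII+2W and -0.10 for AngII+3W, and 0 of them were called in AngII+2W. As a description, in AngII+3W compared with CTRL 0 of them were called higher and 1, Arntl, lower (0.285% of all genes called). The call of Arntl against CTRL held in 6 of 9 other settings. Compared with AngII, 1 was called higher (Cry2) and 3 lower (Arntl, Npas2 and Nfil3), beside 1.61% of all genes called. Of 9 other settings, Arntl and Npas2 were each called in 8 in that comparison, Cry2 in 7 and Nfil3 in 4. Npas2, a partner of Arntl, was at 3.17 and 6.45 CPM in AngII+3W and between 19.2 and 27.2 CPM elsewhere, and Nfil3 was at 5.21 and 7.25 CPM there and between 18.9 and 55.2 CPM elsewhere. Clock itself was at 97.4 and 127 CPM in AngII+3W and at 125 and 161 CPM in CTRL, so that its libraries overlapped.

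**Figure D4:**
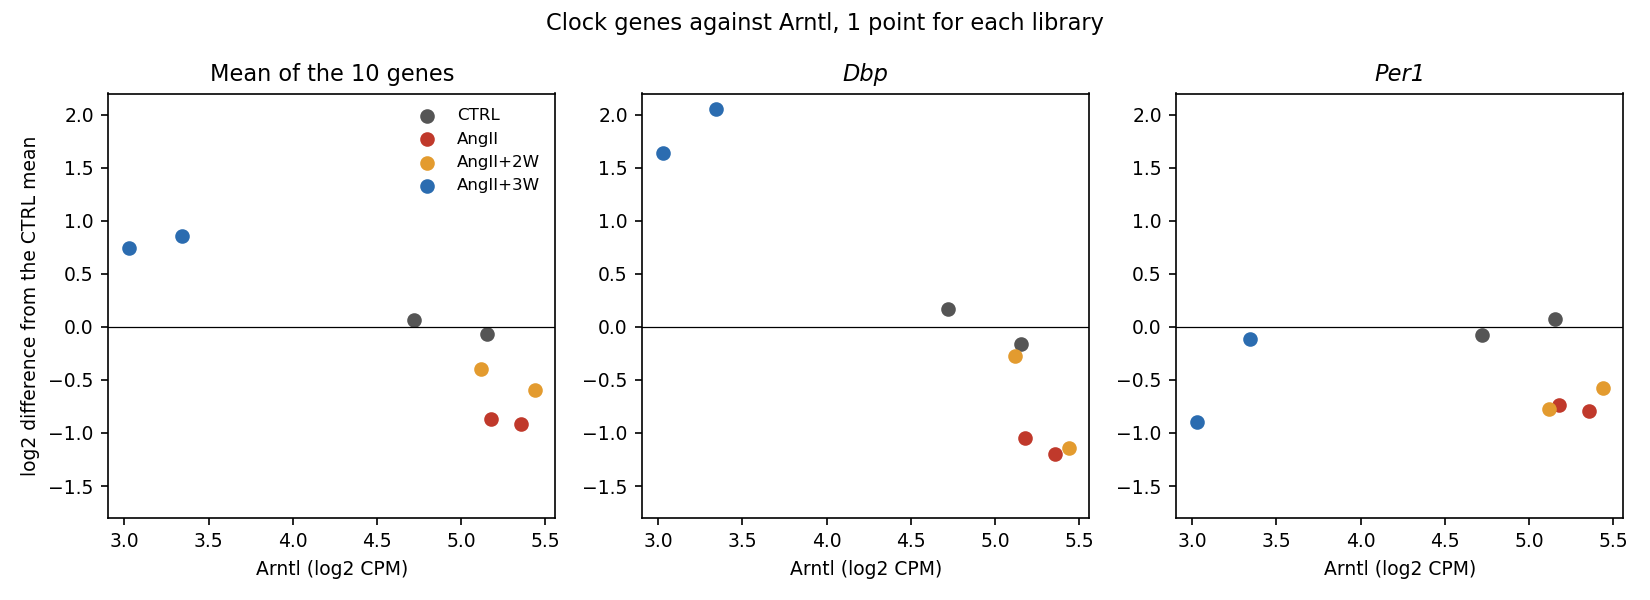
Log2 difference from the CTRL mean (y axis) of the mean of the 10 genes, of Dbp and of Per1, against log2 CPM of Arntl (x axis), with 1 point for each of the 8 libraries. The AngII+3W libraries stand apart on the left, between 3.03 and 3.34 for Arntl, while the other 6 lie between 4.72 and 5.44.

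Genes that are read as outputs of the clock or as stimuli to it were counted next. In AngII compared with CTRL, 5.10% of all genes tested were called, which is the share beside the AngII counts below. Of 13 output genes, 1 was called higher in AngII (Dtx4, log2 difference 1.23, SE 0.20, FDR = 0.0198) and 0 lower, with a median of -0.21. Usp2, a deubiquitinase with a marked daily rhythm, was at 33.0 ± 2.95 CPM in CTRL, at 19.5 ± 0.723 CPM in AngII, at 15.8 ± 3.28 CPM in AngII+2W and at 41.6 ± 11.8 CPM in AngII+3W. Its group means had the order of those of Bhlhe41, but its AngII+3W libraries overlapped with CTRL. Its log2 difference from CTRL was -0.76 in AngII (SE 0.22, FDR = 0.0981). Of the 13 output genes, 1 was called lower in AngII+3W compared with CTRL (Cdkn1a, an inhibitor of the cell cycle) and 2 compared with AngII (Cdkn1a and Dtx4). The call of Cdkn1a compared with CTRL held in 5 of 9 other settings, and both calls compared with AngII held in 8 of 9. Of all genes tested, 0.285% were called in AngII+3W compared with CTRL and 1.61% compared with AngII. Glucocorticoids can set Per1 and Per2 directly, and of 10 genes they induce, 1 was called higher in AngII (Mt2, a metallothionein, log2 difference 1.12, SE 0.20, FDR = 0.0241) and 1 lower (Zbtb16, log2 difference -1.15, SE 0.25, FDR = 0.0438). The median of these 10 was -0.42 in AngII and -0.49 in AngII+3W, and 2 of them, Mt1 and Mt2, were called lower in AngII+3W compared with AngII. Immediate early genes, which respond to the same cell stimuli as Per1, were called lower in AngII for 2 of 10 (Atf3, log2 difference -2.14, SE 0.46, FDR = 0.0426, and Btg2, log2 difference -1.17, SE 0.23, FDR = 0.0321). Their median was -1.06 at the end of infusion, -0.87 for AngII+2W and -0.71 for AngII+3W, likewise below 0 in all 3 groups. The part of either list in the level of Per1 was not tested. In AngII+2W compared with CTRL, 0 genes of these 3 lists were called by edgeR, and at an unadjusted p below 0.05 there were 2 of 13 output genes, 3 of 10 glucocorticoid genes and 6 of 10 immediate early genes lower, beside 6.18% of all genes tested, and 2 output genes higher.

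Genes other than the 10 with the most similar pattern were sought among 15149 genes at a mean of 1 CPM or more, by the Pearson r over the 8 libraries with the mean standardized log2 CPM of the 10 genes. The 8 most alike were Srsf5 (r = 0.991), Fbxo21 (0.981), Tox (0.977), Pik3cb (0.970), Cirbp (0.965), Mbd2 (0.963), Akap8 (0.960) and AL646044.2 (0.960). Srsf5, a splicing factor, was at 269 ± 6.54 CPM in CTRL, at 212 ± 1.94 CPM in AngII, at 229 ± 14.2 CPM in AngII+2W and at 307 ± 13.1 CPM in AngII+3W, a much smaller range than that of Dbp. Cirbp, a cold-inducible RNA-binding protein, was at 28.4 ± 2.07 CPM in CTRL, at 16.4 ± 0.152 CPM in AngII, at 22.2 ± 2.05 CPM in AngII+2W and at 33.1 ± 3.49 CPM in AngII+3W. Cry2 was the 16th most alike (r = 0.929). The 5 most opposite were Selenos (r = -0.977), Vps26c (-0.975), Psmb4 (-0.973), Tm2d2 (-0.968) and Kpnb1 (-0.960), and Arntl had r = -0.887. These values describe 8 libraries in 4 groups, and nothing is read from them about shared function or control.

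Some counts of the 10 genes may be shared with other genes. Exons of Nr1d1 overlap on the opposite strand with those of Thra over 263 bases (8.55% of its exon bases), those of Dbp with Sphk2 over 539 bases (18%), those of Bhlhe41 with Gm43909 over 1280 bases (19%) and those of Tef with Gm17597 over 193 bases (2.45%). Whether strand was used in the counting is not given in the sources used here. Sphk2 was at 30.3 ± 5.41 CPM in CTRL, at 28.7 ± 5.52 CPM in AngII, at 25.9 ± 0.475 CPM in AngII+2W and at 23.6 ± 2.16 CPM in AngII+3W, which is not the pattern of Dbp. Thra was at 135 and 158 CPM in CTRL and at 94.4 and 106 CPM in AngII, so that it was lower in both AngII libraries as Nr1d1 was. In AngII+3W it was at 94.5 and 115 CPM, below both CTRL libraries, while Nr1d1 overlapped with CTRL. If strand was not used, reads of Thra and Nr1d1 in their shared bases cannot be told apart. Near-identical copies of Ciart (Gm9176, 98.8% identity) and Nr1d2 (AC170187.1, 96.3%) had 0 counts in every library and at most 1 count in a library, respectively.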

How the data were processed

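The 8 libraries were grouped by their labels. The authors depleted ribosomal RNA, quantified reads with Salmon on GRCm38 transcripts and imported the estimates by gene. What they deposited are expected counts, rounded to whole numbers and not normalized. Library totals were between 18130441 and 21498200. The members and all gene lists were chosen with earlier results of these data known.

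Genes kept by filterByExpr (17182) entered edgeR 4.0.16 (R 4.3.3, TMM, quasi-likelihood F test in its older form) in 1 fit of all 8 libraries with a term for each group. The 6 comparisons are two-sided, with Benjamini-Hochberg adjustment over all genes tested (FDR, threshold 0.05). The SE is the absolute log2 fold change divided by the square root of F. With 2 libraries in each group the smallest p of an exact permutation test is 0.33, so none was run. DESeq2 1.42.0 and limma-voom (limma 3.58.1) were alternatives. The CPM use TMM library sizes, and log2 CPM a prior of 0.5 counts. For DESeq2, shares are of genes with an adjusted p. Libraries pool 2 mice each, and p-values measure the spread between pools only. Text names all 10 members, members of the lists, and the 8 genes most and 5 least like them.

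Promoters are those of RefSeq, exons those of GENCODE M21, and copies were searched with BLAST 2.17.0 (at least 200 bases at 90% identity).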

Additional observations from a re-analysis of the deposited data

Results flagged for a closer look

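The differences between the effects of AngII+3W and AngII, each against CTRL, are the same values as AngII+3W against AngII. They passed FDR 0.05 for 8 of the 10 genes, beside 1.61% of all genes tested. The 10 genes were chosen with AngII+3W results known, so that the differences are listed as values and are no independent finding. On the log2 scale the difference was 1.98 for Per2, 2.00 for Per3, 1.46 for Nr1d2, 2.98 for Dbp, 1.57 for Tef, 1.95 for Hlf, 2.48 for Ciart and 1.32 for Bhlhe41. Other than for Per2, both AngII libraries of these genes were below CTRL and both AngII+3W libraries above it. Between AngII+3W and AngII+2W the libraries also lay on opposite sides of CTRL for Dbp (difference 2.51), Hlf (1.26), Ciart (2.33) and Bhlhe41 (1.40), and these differences did not pass FDR 0.05. Groups of 2 libraries are too small for a search for single deviating values.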

How the results depend on the processing

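Members that passed FDR 0.05 in AngII compared with CTRL numbered 2. They were 1 with DESeq2's size factors and with library totals alone, 5 with every gene of at least 1 count, 4 with at least 10 counts in every library, 7 with DESeq2, 5 with only the 2 groups compared, and 0 to 6 when a library was left out. For AngII+2W against CTRL (0) they were 1 with DESeq2 and 0 to 1 with a library left out. For AngII+3W against CTRL (0) they were 3 with every gene of at least 1 count, 2 with at least 10 counts in every library, 6 with DESeq2 and 0 to 3 with a library left out. For AngII+2W against AngII (0) they were 3 with only the 2 groups compared and 0 with each library left out. For AngII+3W against AngII (8) they were 8 or 9 in 8 of 9 other settings, limma-voom and DESeq2 (9 each) included, 0 with only the 2 groups compared and 0 to 8 with a library left out. For AngII+3W against AngII+2W (0) they were 3 with every gene of at least 1 count, 8 with DESeq2 and 0 to 6 with a library left out. With limma-voom they were 2 in AngII compared with CTRL and 0 in the other 4 comparisons. Where 1 library of a group is left, it is assumed to vary as the other groups do. By DESeq2, 6.24% of all genes were called in AngII+3W against AngII. No shares over all genes are given for settings other than edgeR's main fit and DESeq2. Nothing is therefore read about the 10 genes from the counts in this section. The cause of these shifts was not tested.

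Replicate numbers do not pair mice, and the differences between replicates correlated between groups at r of -0.06 to 0.22. With the replicate block, 4 members passed in AngII, 1 in AngII+3W against AngII+2W and 9 in AngII+3W against AngII, and 0 in the other 3 comparisons.

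Of 1020 refitted log2 differences of the members, 890 kept direction and side of the threshold, 68 newly passed it, 50 lost it and 12 turned direction, all 12 with a library left out. The ranges were -0.35 to 0.32 for Per3 in AngII+2W, -0.16 to 0.35 for Nr1d1 in AngII+3W, and, for AngII+2W against AngII, -0.018 to 0.19 for Per1, -0.019 to 0.84 for Dbp, -0.14 to 0.53 for Ciart and -0.29 to 0.10 for Bhlhe41. Per1 ranged from -0.18 to 0.65 in AngII+3W against AngII and from -0.27 to 0.56 against AngII+2W. Among other genes, Npas2 ranged from -0.011 to 0.21, Nfil3 from -0.99 to 0.17 and Cdkn1a from -0.58 to 0.21 in AngII, Npas2 from -0.20 to 0.31, Cdkn1a from -0.52 to 0.27 and Cry2 from -0.27 to 0.10 in AngII+2W, Dtx4 from -0.62 to 0.061 in AngII+3W, and Arntl from -0.15 to 0.17, Npas2 from -0.29 to 0.21 and Cdkn1a from -0.16 to 0.23 in AngII+2W against AngII.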
